A study of Mus musculus with 28 samples.

Results

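Oxidative phosphorylation in the mitochondrion is carried by proteins of nuclear and mitochondrial origin, and the nuclear genes for its complexes are described here in RNA-seq of mouse germinal center B cells. The genes were chosen by symbol: names beginning with Atp5 or Uqc, Cox4 to Cox8, Sdha to Sdhd and the numbered Ndufa, Ndufb, Ndufc, Ndufs and Ndufv genes. Of the 23382 symbols listed, 85 matched, and 78 reached a CPM (read count scaled to the library's total, as deposited) of at least 1 in at least 3 of the 28 libraries. These 78 hold 34 subunits of complex I, 4 of complex II, 8 of complex III, 14 of complex IV and 15 of complex V, and 3 proteins that are not subunits (Atp5s, Atp5sl and Uqcc). The rule itself uses names and levels and no difference between groups.

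The study compared Tbl1xr1 alleles in these cells. All 28 libraries carry 1 copy of Cg1Cre, a Cre recombinase expressed from the IgG1 constant region locus, which is switched on in antigen-activated B cells. The groups without a further allele were Cg1Cre(+/-)_Tbl1xr1(D370Y/WT), heterozygous for the D370Y substitution (D370Y, 5 libraries), and Cg1Cre(+/-)_Tbl1xr1(WT/WT) (WT, 3 libraries). Both ImuBcl6 groups carry the ImuBCL6 allele, which drives Bcl6 from an immunoglobulin heavy chain promoter in B cells: ImuBCL6_Cg1Cre(+/-)_Tbl1xr1(D370Y/WT) (ImuBcl6 D370Y, 5) and ImuBCL6_Cg1Cre(+/-)_Tbl1xr1(WT/WT) (ImuBcl6, 5). The last pair was Cg1Cre(+/-)_Tbl1xr1(KO/KO) (KO, 5) and its Cre control (5), whose genotype label is the same as that of WT and which has its own titles. The labels used here give neither the age nor the sex of the mice and do not tie libraries to animals, so the p-values rest on the spread among samples, part of which may be technical.

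Complexes I and II feed electrons from NADH and succinate into ubiquinone, complex III passes them to cytochrome c, and complex IV hands them to oxygen. Complexes I, III and IV pump protons across the inner membrane, and complex V (ATP synthase) uses the return flow to make ATP. Complex II is also the succinate dehydrogenase of the citric acid cycle and is encoded wholly by nuclear genes, whereas the other complexes also hold subunits from the mitochondrial genome. Germinal center B cells divide fast, and oxidative phosphorylation is one of the energy pathways that has been studied in them. The 13 subunits encoded in the mitochondrial genome were not found among the listed symbols and so could not be analysed. Neither protein nor respiration was measured, so all values are transcript levels. In bulk libraries fewer cells of a type and less RNA per cell cannot be told apart.

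Libraries held 19.0 to 37.7 M reads on listed genes. The germinal center markers Bcl6, Fas and S1pr2 were present in every library (Bcl6 at 308 to 589.7 CPM). KO replicate 3 stood apart: 64.4% of its CPM denominator lay on listed genes, against 78.7% to 84.6% elsewhere, and the ribosomal RNA precursor Rn45s had 27068 CPM there, against 1914 to 18319. Tbl1xr1 itself was at 102 ± 15.4 CPM (SD, n = 5) in KO and 86.0 ± 5.82 (SD, n = 5) in the Cre control; the labels used here do not say which part is deleted, so this level checks nothing, and KO below means the libraries labelled so. Xist, expressed from an inactive X chromosome, was at 2.22 to 9.12 CPM in WT and 486 to 1460 in D370Y, and at 304 to 638 in ImuBcl6 and 0.299 to 1.39 in ImuBcl6 D370Y. Sex and the D370Y allele therefore cannot be told apart in either comparison. KO and Cre control each held libraries with and without Xist, but not equally. In replicate order, Xist was at 179, 154, 105, 0.108 and 86.7 CPM in the Cre control. In KO it was at 0.0493, 148, 948, 0.202 and 0.0262, the 948 being that of replicate 3.

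Sequences upstream of the start are shown first because regulators of these genes, among them NRF1, the ETS factor GABP and YY1, are known to act there in part of the set. The RefSeq promoter table (GRCm38.p6) held 67 of the 78 genes. Of their 73 listed starts, 61 had the first 30 bases inside a GENCODE M21 transcript of the gene. A gene was counted for a motif if any listed start had it in the 250 bases before. The NRF1 core (GCGCATGC or GCATGCGC on the printed strand) was found in 8 of 67 (11.9%), against 2.56% of all genes in the table and 5.47% of expressed genes. The ETS core CCGGAAG, on either strand, was in 12 (17.9%; 7.83% of all and 16.9% of expressed genes), and the YY1 sequence AAGATGGCG, on either strand, in 2 (2.99%; 0.710% and 1.53%). At least 1 of these 3 was present in 19 of the 67, but the matching share over all or expressed genes was not computed. Other motifs read on both strands were CCAAT in 31 (46.3%; 37.5% of all and 41.3% of expressed genes), the SP1 box GGGCGG in 25 (37.3%; 35.4% and 64.1%), the E-box CACGTG in 7 (10.4%; 6.86% and 10.3%) and the cyclic AMP response element TGACGTCA in 4 (5.97%; 1.77% and 3.12%). These are matches of letters in a fixed window, not sites shown to be bound.

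The 4 promoters below are those of the gene called in a comparison (Cox7b) and of 3 genes described further on, 1 with an NRF1 core (Sdhb) and 2 with an ETS core (Uqcrh and Sdhd). Capitals mark the match, and each sequence is given on the strand of its gene. Cox7b lies at chrX:106015450-106015699 on the plus strand, Sdhb at chr4:140961021-140961270 on the plus strand, Uqcrh at chr4:116075071-116075320 on the minus strand and Sdhd at chr9:50603850-50604099 on the minus strand. The Cox7b window holds none of the NRF1, ETS and YY1 letters.
Cox7b: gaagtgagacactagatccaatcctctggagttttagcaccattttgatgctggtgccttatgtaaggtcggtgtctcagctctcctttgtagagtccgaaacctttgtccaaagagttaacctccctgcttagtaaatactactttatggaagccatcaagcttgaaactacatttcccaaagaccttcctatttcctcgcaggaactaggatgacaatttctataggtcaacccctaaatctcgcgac
Sdhb: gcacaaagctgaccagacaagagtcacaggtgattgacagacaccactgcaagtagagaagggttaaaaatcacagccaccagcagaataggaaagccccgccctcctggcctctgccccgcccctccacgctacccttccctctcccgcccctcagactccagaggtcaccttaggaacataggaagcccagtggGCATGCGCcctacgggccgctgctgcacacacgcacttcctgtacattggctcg
Uqcrh: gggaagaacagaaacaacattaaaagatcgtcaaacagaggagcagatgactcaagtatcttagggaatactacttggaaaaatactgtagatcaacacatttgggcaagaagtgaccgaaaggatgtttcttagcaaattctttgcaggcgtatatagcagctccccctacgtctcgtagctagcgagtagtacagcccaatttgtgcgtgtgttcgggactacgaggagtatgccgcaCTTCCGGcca
Sdhd: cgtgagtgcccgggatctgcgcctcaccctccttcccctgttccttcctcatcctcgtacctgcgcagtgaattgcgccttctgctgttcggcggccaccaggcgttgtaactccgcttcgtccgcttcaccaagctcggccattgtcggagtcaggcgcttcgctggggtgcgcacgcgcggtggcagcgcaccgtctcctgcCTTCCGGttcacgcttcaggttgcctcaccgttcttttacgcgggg

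The complexes differed in transcript level, here CPM per kb of median GENCODE M21 transcript length, averaged over the 6 group means. That length is the median over all annotated coding transcripts of a gene, short ones included. Levels and ranks per kb therefore depend partly on the annotation. Complex V was highest, with a median of 273 per kb over its 15 genes, followed by complex IV at 225, complex III at 200, complex II at 142 and complex I at 122. These medians describe genes in the same libraries and carry no test. The highest gene of each was Atp5b, the catalytic beta subunit of the synthase (820.4), Cox4i1, the ubiquitous regulatory subunit of complex IV (688), Uqcrh, the hinge subunit of complex III (605), Ndufb8, an accessory subunit of the membrane arm of complex I (230.3), and Sdhb, the iron-sulphur subunit of complex II (229). In complex II, the membrane anchors Sdhc and Sdhd were at 90.8 and 108 per kb and the flavoprotein Sdha at 175. Ndufa4, first described in complex I and now counted with complex IV, was at 429.8 per kb.

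The lowest levels per kb were Atp5g2 at 1.41, Cox7a1 at 2.74 and Ndufb4 at 3.16. Cox7a1 is an isoform best known from heart and skeletal muscle. Cox6b2, a testis isoform, was also near the minimum, with a mean CPM of 1.54 and 24 libraries at or above 1. Just inside the rule lay Atp5g2 (14 libraries) and Atp5l (20). Just outside lay Cox4i2, an isoform known from lung, at a mean CPM of 0.248 with 1 library at or above 1, Ndufa4l2, a hypoxia-induced paralog of Ndufa4, at 0.161, and the muscle isoform Cox6a2 at 0.135. Cox7b2, Cox8b, Cox8c and Ndufs5 completed the 7 symbols below the minimum.

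Near-identical copies make part of these levels uncertain. At 98% identity or more over at least 100 bases, 11 of the 78 genes had a match in a GENCODE M21 pseudogene, from 35.6% of the transcript's bases in Cox7c to 77.6% in Atp5h. The others were Ndufs3, Uqcrb, Atp5g2, Atp5g1, Atp5l, Atp5f1, Ndufb4, Uqcr11 and Ndufa12. Their median was 29.6 CPM per kb, against 165 for the 67 genes without such a match, and 5 of the 10 genes lowest per kb were among the 11. Matches in annotated genes other than pseudogenes were left out of this count. Some of the 67 had them, such as Cox5a (42.0% of bases) and Ndufb6 (39.0%). Ndufs5, a complex I subunit below the minimum and so outside the 78, had 60.8% of its bases in a pseudogene match. It had at most 1 read in any library. How reads shared by copies were counted is not stated, and the part of the copies in the low levels was not tested.

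**Figure D1:**
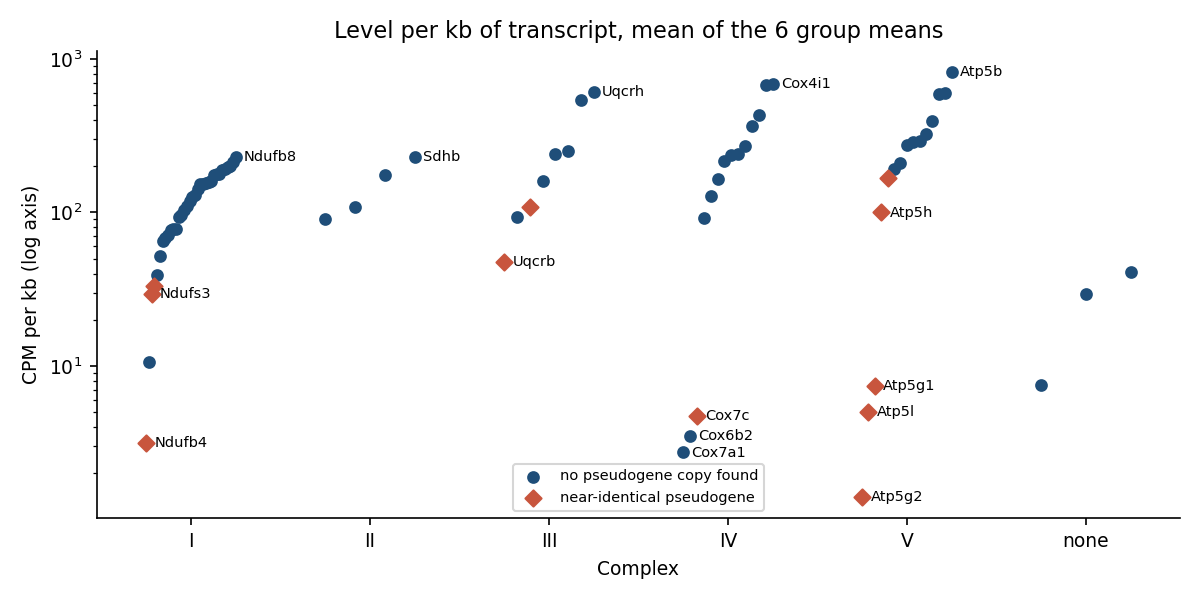
CPM per kb of transcript (log axis) for each of the 78 genes, as the mean of the 6 group means, by complex; diamonds are the 11 genes with a near-identical pseudogene and circles the other 67. Atp5b (820), Cox4i1 (688) and Uqcrh (605) stand at the top, and the lowest points include Atp5g2, Atp5l and Ndufb4, which are diamonds.

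Summed over the 78 genes, CPM was 11129 ± 144 (SD, n = 3) in WT and 10548 ± 1178 (SD, n = 5) in D370Y. It was 11881 ± 876 (SD, n = 5) in ImuBcl6 and 12810 ± 474 (SD, n = 5) in ImuBcl6 D370Y, a mean 7.82% higher. In the Cre control it was 14090 ± 474 (SD, n = 5) and in KO 13424 ± 2818 (SD, n = 5). The ranges of each allele group overlapped those of its control: 8862 to 11734 for D370Y and 11023 to 11292 for WT, 12291 to 13529 for ImuBcl6 D370Y and 10949 to 13011 for ImuBcl6, and 8594 to 15476 for KO and 13629 to 14862 for the Cre control. Without KO replicate 3, which held the 8594, KO was at 14631 ± 933 (SD, n = 4) and its difference from the Cre control went from -4.73% to +3.84%. No test was made on these sums.

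Each complex kept a narrow share of the sum. Complex V took 38 to 43% in the 28 libraries, complex I 22 to 25%, complex IV 15.6 to 20.5%, complex III 9.8 to 10.6% and complex II 5.4 to 7.5%. The complex IV share was 16.3 to 16.5% in WT and 19.1 to 20.5% in the Cre control, although these groups have the same genotype label. WT and Cre control differ in protocol text and were not tested against each other; the median Cre control to WT ratio was 1.32 over the 78 genes and 1.01 over all expressed genes. The ratio passed 2 for 9 genes and was under 0.5 for 0, with Ndufb4 and Ndufs1 lowest at 0.54. Of the 9, Atp5g1 (18.6), Atp5l (10.9), Cox7c (4.38) and Atp5g2 (3.25) had a near-identical pseudogene copy. Atp5j2 (4.41), Cox5b (3.04), Cox7a2l (2.33), Ndufs6 (2.13) and Cox8a (2.08) did not. Levels are therefore compared below only between an allele and its own control.

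**Figure D2:**
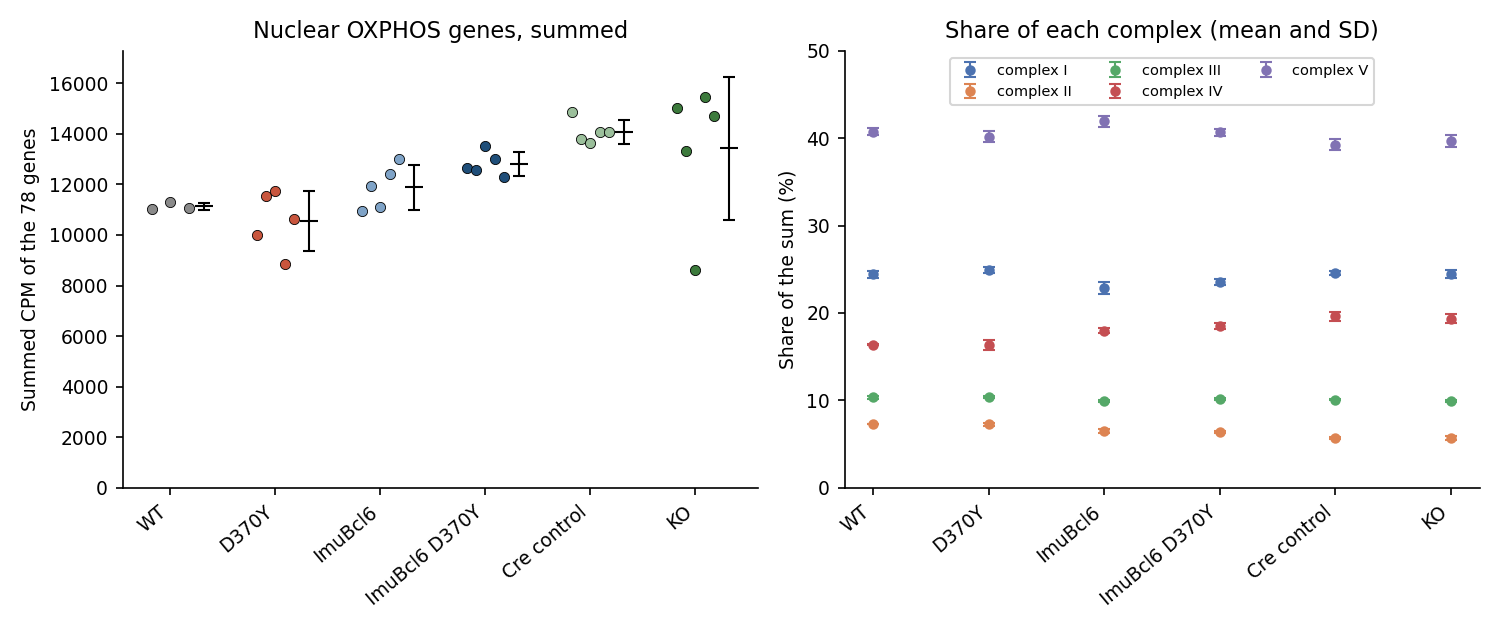
Left, summed CPM of the 78 genes in each library (points) with the group mean and SD (bars); right, the share of each complex in that sum in percent, as mean and SD of the libraries of a group. The KO library at 8594 lies apart from the other 4 at 13313 to 15476, and the order of the complexes is the same in all 6 groups.

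The D370Y allele without ImuBcl6 was compared with WT to ask whether the heterozygous mutation changes these genes. No gene of the set was called by limma: 0 of 75 tested (Atp5g2, Atp5l and Cox7c were under the minimum of this fit) had an adjusted p below 0.05, against 3.55% of the 10600 genes tested. At an unadjusted p below 0.05 the count was also 0 of 75 (18.3% of all genes). edgeR called 0 (3.38% of all genes) and DESeq2 0 (6.22%). The median log2 fold change, on the log2(CPM + 1) scale used throughout, was -0.08, against -0.02 over all genes, and 10 of 75 folds were above 0 (45.6% of all genes). For all 75 the 95% interval of the difference lay within a 1.5-fold change in either direction, and for 52 within 1.25-fold.

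One library weighed on this direction. D370Y replicate 4 was the lowest of its group in 66 of the 78 genes and replicate 3 the highest in 51. Without replicate 4 the median was -0.01 and 35 of 75 folds were above 0, and with library weights 33 were. With a replicate block 38 were, but WT has no replicates 4 and 5. The block fit therefore compares replicates 1 to 3 only and is no separate check. By role and with all libraries, 0 of the 7 core and 4 of the 27 accessory subunits of complex I had a fold above 0. The counts were 1 of 4 in complex II, 1 of 8 in complex III, 1 of 13 in complex IV and 1 of 13 in complex V.

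The largest lower value was that of Cox7a2l, which binds complex III and joins it to complex IV in supercomplexes. WT libraries had 153, 160.3 and 168 CPM, and D370Y libraries 136, 154, 159, 114 and 151. The log2 fold change was -0.18 ± 0.10 (SE), with an adjusted p of 0.360. D370Y replicate 4 was lowest and the groups overlapped.

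Ndufs7, a core subunit of complex I with an iron-sulphur cluster, had 74.6, 76.8 and 72.2 CPM in WT and 56.6, 71.1, 76.9, 60.7 and 66.6 in D370Y. The fold was -0.17 ± 0.09 (SE), with an adjusted p of 0.341. Ndufs4, an accessory subunit whose loss causes complex I deficiency, was at 76.7 ± 3.15 in WT (SD, n = 3) and 68.6 ± 10.1 in D370Y (SD, n = 5), with a fold of -0.17 ± 0.11 (SE), with an adjusted p of 0.425. Among the higher values, the accessory subunits Ndufv3 and Ndufa3 had 0.05 ± 0.10 and 0.05 ± 0.10 (SE), and the complex I assembly factor Atp5sl 0.04 ± 0.09 (SE), all far from the threshold.

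The CPM ranges of D370Y and WT did not overlap for 2 of 75 genes, both lower in D370Y (14.8% of all genes, either direction). Sdha, which holds the FAD of complex II, had 349, 359 and 363 CPM in WT and 340.5, 339, 337, 299 and 326 in D370Y, with a fold of -0.12 ± 0.06 (SE), with an adjusted p of 0.349. Atp5f1, subunit b of the peripheral stalk of the synthase and one of the genes with a near-identical copy, had 186, 184 and 188 in WT and 164, 181, 182, 131 and 177 in D370Y, with a fold of -0.16 ± 0.10 (SE), with an adjusted p of 0.402. Neither passed the test over all genes.

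In the ImuBcl6 background the D370Y allele was compared with ImuBcl6 alone. Cox7b, a nuclear subunit of complex IV encoded on the X chromosome (chrX:106015700-106022450, GENCODE M21), was the 1 gene of 78 called by limma and was higher, against 8.18% of the 10784 genes tested. ImuBcl6 libraries had 132, 139, 126, 134 and 148 CPM, and ImuBcl6 D370Y libraries 187, 177, 174, 145 and 149. The means were 136 ± 8.21 and 167 ± 18.5 (SD, n = 5 each). Replicates 1, 2 and 3 of ImuBcl6 D370Y stood well above all ImuBcl6 libraries and replicate 5 just above, while replicate 4 fell within their range, so the groups overlapped.

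The fold of Cox7b was 1.22, or 0.29 ± 0.08 (SE) in log2, with a 95% interval of 0.13 to 0.46 and an adjusted p of 0.0333. The call was lost without any one of 6 of the 10 libraries (ImuBcl6 replicates 2, 3 and 4, ImuBcl6 D370Y replicates 1, 2 and 3), with adjusted p from 0.0172 to 0.100 over the 10 fits and a fold above 0 in each. In the other 2 comparisons Cox7b was at -0.04 ± 0.10 and -0.04 ± 0.15 (SE), neither called. Cox7b and the other X-linked genes of the set, Ndufa1 and Ndufb11, belong to a comparison in which Xist separated the groups.

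Below the threshold, the other genes lay to the same side more often than all genes did. Of the 78 folds, 73 were above 0 (47.9% of all genes), and the median was 0.14 against -0.01. At an unadjusted p below 0.05, 32 of 78 (41.0%) passed, all of them higher, against 23.9% of all genes in either direction. edgeR called 2 of 78, Cox7a2l and Cox7b (7.35% of all genes), and DESeq2 14, or 17.9%, against 12.8% of all genes. For 77 of 78, Uqcrq excepted, the 95% interval lay within a 1.5-fold change, and for 44 within 1.25-fold.

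By role, all 34 subunits of complex I had a fold above 0. Of these, 17 had an unadjusted p below 0.05 in limma (23.9% of all genes, either direction). The 27 accessory subunits had a median of 0.19, the 4 core subunits that reduce ubiquinone 0.14, and the 3 that oxidise NADH 0.10. In complex II 4 of 4 were above 0 (median 0.07), in complex III 8 of 8 (0.21), in complex IV 13 of 14 (0.09) and in complex V 13 of 15 (0.13). In complex V, the 7 subunits of the membrane part or the stalk outside F1 were all above 0. Of the 5 subunits of F1, the part that holds the catalytic sites, 4 were, Atp5b being the exception. Of the 3 c-ring genes 2 were above 0. The summed CPM was 10.8% higher for complexes I, III and IV, 5.52% for complex II and 4.64% for complex V.

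The highest fold among genes at a mean CPM of 5 or more was Uqcrq, a small subunit of complex III, which was not called. ImuBcl6 libraries had 33.6, 61.8, 44.6, 64.2 and 65.9 CPM, and ImuBcl6 D370Y libraries 69.3, 67.2, 67.9, 64.1 and 68.5. The fold was 0.36 ± 0.15 (SE), with an adjusted p of 0.179. ImuBcl6 replicates 1 and 3 were low, and replicates 4 and 5 reached into the range of ImuBcl6 D370Y; without replicate 1 the fold was 0.20. Uqcr11, another small complex III subunit with a near-identical copy, was at 0.26 ± 0.12 (SE), adjusted p = 0.230, and 0.13 without the same library.

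Cox7a2l missed the threshold narrowly, at 0.21 ± 0.06 (SE), with an adjusted p of 0.0504. ImuBcl6 libraries had 211, 221, 235, 253 and 240.0 CPM, and ImuBcl6 D370Y libraries 259, 251, 279.6, 285 and 265; the highest control and the lowest allele value overlapped. Ndufa4 was at 0.18 ± 0.06 (SE), with an adjusted p of 0.101.

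The ranges did not overlap for 5 of the 78 genes (6.41%), all higher in ImuBcl6 D370Y, against 8.96% of all genes in either direction. These were the complex I accessory subunits Ndufb3, Ndufb6, Ndufb8 and Ndufc2 and the complex II anchor Sdhd. Ndufb8 had 102, 117, 102, 126 and 121 CPM in ImuBcl6 and 126, 129, 148, 130.2 and 133 in ImuBcl6 D370Y, with a fold of 0.23 ± 0.07 (SE), with an adjusted p of 0.0637. Sdhd, whose promoter is printed above, had 121, 132, 116, 129 and 130.3 and 137, 143, 147, 147 and 133, with a fold of 0.17 ± 0.05 (SE), with an adjusted p of 0.0747. Ndufb3, Ndufb6 and Ndufc2 had folds of 0.18 ± 0.06, 0.22 ± 0.07 and 0.22 ± 0.09 (SE), with adjusted p of 0.0728, 0.0718 and 0.127.

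The folds below 0 among genes at that level were those of Atp5b at -0.04 ± 0.06, the synthase factor Atp5s at -0.02 ± 0.11 and Atp5sl at -0.0036 ± 0.07 (SE). Atp5b, the most abundant gene per kb, had 1561, 1609, 1553, 1651 and 1830.2 CPM in ImuBcl6 and 1549.8, 1548, 1709, 1685 and 1500.4 in ImuBcl6 D370Y. The groups overlapped. Atp5sl and Atp5s changed sign under other scalings or weights and with single libraries left out, so neither has a direction.

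Other gene groups were read in the same fit. The 74 cytosolic ribosome genes tested all had folds above 0, with a median of 0.23 and 8 of 74 called, all higher, where 8.18% of all genes were called; the 8 included Rpl7 at 0.27 ± 0.05 (SE), adjusted p = 0.0101, and Rpl4 and Rps24. The mitochondrial ribosome had 69 of 75 above 0 (median 0.11) with 1 called, Mrpl41 at 0.31 ± 0.07 (SE), adjusted p = 0.0177. Of 22 electron carrier and ATP export genes, 21 were above 0 and 1 was called, the ADP/ATP carrier Slc25a4 at 0.23 ± 0.06 (SE), adjusted p = 0.0486. Import genes were above 0 in 22 of 23 (median 0.12), assembly factors in 23 of 31 and citric acid cycle genes in 11 of 19 (medians 0.05 and 0.05), with 0 called. Within ImuBcl6, replicate 1 was 0.14 below its group mean in the median over the OXPHOS genes and 0.17 below for the cytosolic ribosome, and replicate 5 was 0.15 above for both.

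Regulators of mitochondrial biogenesis lay more often below 0. Of the 16 tested 5 were above 0, with a median of -0.07, and limma called 0. The coactivator Pprc1 was at -0.26 ± 0.08 (SE), adjusted p = 0.0696, and Yy1 at -0.20 ± 0.07 (SE), adjusted p = 0.0814. Nrf1 was at -0.10 ± 0.05 (SE), adjusted p = 0.298, the GABP subunits Gabpa, Gabpb1 and Gabpb2 at -0.03, -0.08 and -0.11, and Tfam, which packages mitochondrial DNA, at 0.16 ± 0.08 (SE), adjusted p = 0.224. The mitochondrial transcription factor Tfb2m was at 0.21 ± 0.10 (SE), adjusted p = 0.237 and Myc at -0.0070 ± 0.12 (SE), adjusted p = 0.983. The remaining folds were -0.15 for Polg, -0.14 for Ppargc1b, -0.09 for Polrmt, -0.06 for Peo1, 0.05 for Tfb1m, 0.08 for Esrra and 0.09 for Lrpprc. Ppargc1a was under the filter, with a highest group mean of 0.326 CPM.

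Markers of other cells moved in this comparison too. Of 8 myeloid markers tested, 5 were called higher, and the summed CPM of the 13 listed was 122 to 165 in ImuBcl6 and 167 to 249 in ImuBcl6 D370Y; Cd14, Fcgr1 and Marco were under 1 CPM in every library of both. Of the naive B cell markers 6 of 8 were called higher, with sums of 597 to 697 and 851 to 1036, and of 3 T cell markers tested 2 (Cd2 and Cd3g), the third, Lck, being at -0.26 ± 0.10 (SE), adjusted p = 0.112, with sums over the 8 listed of 343 to 451 and 378 to 461 and with Cd3e, Cd8a and Icos under 1 CPM in both groups. Pecam1, an endothelial marker, and the plasma cell gene 2010001M09Rik were called higher too. The germinal center genes Bcl6 and Gcet2 were called lower. Transcripts under 1000 bases that are not in the set had a median fold of 0.05, with 62.0% above 0, and those of 2000 bases or more -0.05; 58 of the 78 OXPHOS genes are under 1000 bases. The part of these differences, and of sex, in the OXPHOS values was not tested.

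**Figure D3:**
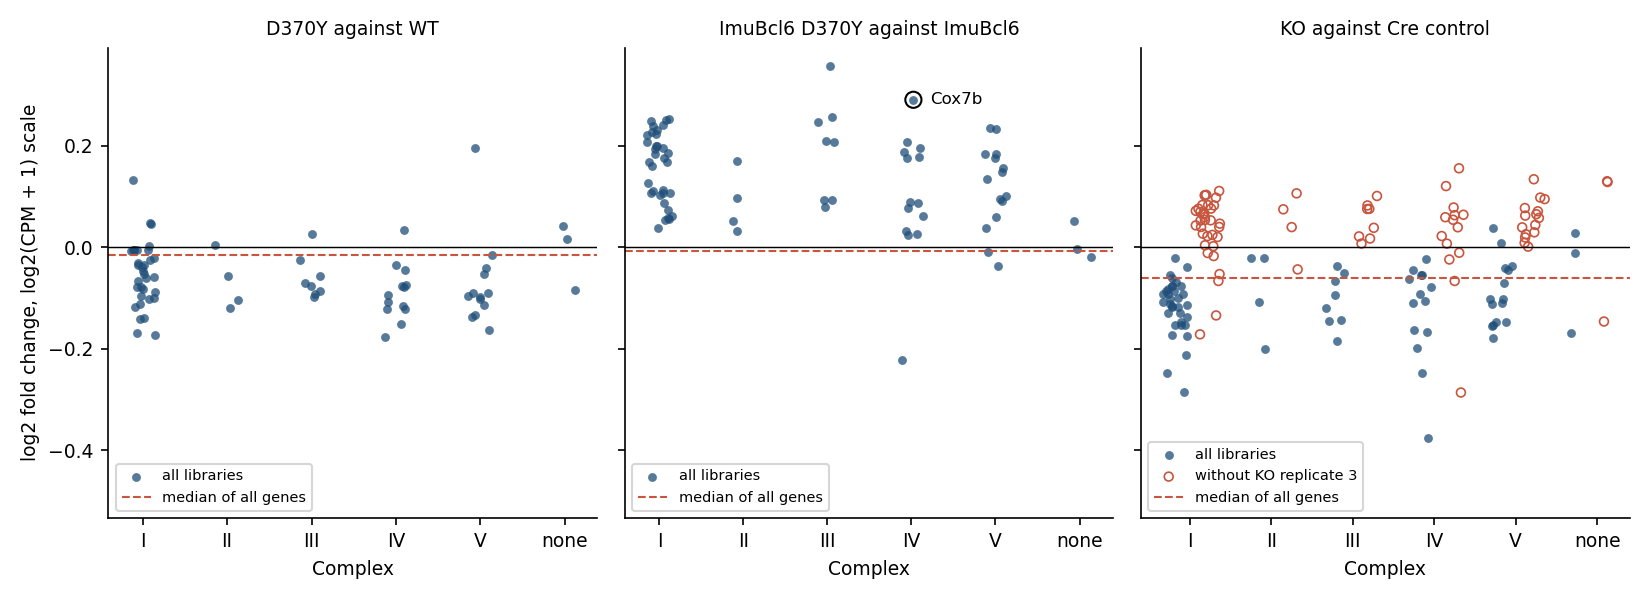
log2 fold change of each gene tested (filled points) by complex in the 3 comparisons of an allele with its own control, on the log2(CPM + 1) scale; the dashed line is the median of all genes tested, the open points the KO fit without KO replicate 3, and the ringed point Cox7b. The ImuBcl6 D370Y points lie mostly above 0 (73 of 78), the D370Y points mostly below (10 of 75 above), and the KO points move from 3 of 78 above 0 to 66 of 78 without that library.

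The difference between the allele's effects with and without ImuBcl6 was tested in a fit of the 4 groups. Limma called 0 of 78 (0.663% of all genes), with 16 at an unadjusted p below 0.05, all higher (20.5%, against 12.3% of all genes). edgeR called 0 (0.636% of all genes) and DESeq2 1, Cox7a2l (1.65%). The median difference was 0.21, with 73 of 78 above 0, and 0.14 without D370Y replicate 4. Cox7a2l had a difference of 0.39 ± 0.12 (SE), with an adjusted p of 0.149, and Cox7b of 0.34 ± 0.13 (SE), with an adjusted p of 0.294. The 95% interval of the difference lay within 1.5-fold for 56 of 78 genes, so larger differences cannot be set aside for the others. Xist was high in opposite groups of the 2 comparisons, and this contrast uses the same D370Y and WT libraries as the comparison above. D370Y and WT libraries held 19.0 to 22.2 M reads on listed genes, and the ImuBcl6 groups 31.8 to 37.7 M. Rn45s was at 5130 to 11694 CPM in the former and 1914 to 3292 in the latter. The ImuBcl6 background and these library differences cannot be told apart in this contrast.

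The libraries labelled KO were compared with their Cre control to ask what loss of Tbl1xr1 does to these genes. Limma called 0 of 78 (1.39% of all genes). At an unadjusted p below 0.05, 2 passed, Cox6b2 and Ndufa12, both lower (9.05% of all genes). edgeR called 0 (2.26%) and DESeq2 0 (4.34%), and the ranges overlapped for all 78 (4.23% of all genes did not overlap). The median was -0.10 against -0.06 over all genes, with 3 of 78 folds above 0 against 30.2% of all genes. Under other scalings and tools the median was -0.05 to -0.03, and with library weights 0.08. With a covariate for Xist above 100 CPM or not it was -0.15. Cre control replicate 5, at 86.7 CPM of Xist, was below that cut.

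The direction rested on KO replicate 3. It was the lowest of its group in 76 of 78 genes, and its median deviation from the group mean was -0.61 over the OXPHOS genes, -0.54 over the mitochondrial ribosome, -0.62 over the cytosolic ribosome and -0.24 over all genes. Without it 66 of 78 folds were above 0, with a median of 0.05 (0.00 over all genes, 50.4% above 0). Limma then called 0 of 78 (4.25% of all genes), and 5 had an unadjusted p below 0.05 (17.6% of all genes). In that fit 28 of 34 genes in complex I, 3 of 4 in complex II, 8 of 8 in complex III, 10 of 14 in complex IV and 15 of 15 in complex V were above 0.

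Ndufa1, an X-linked accessory subunit of complex I, had 80.6, 76.9, 65.6, 72.6 and 78.1 CPM in the Cre control and 70.8, 59.7, 39.8, 73.3 and 68.3 in KO. The fold was -0.29 ± 0.14 (SE), with an adjusted p of 0.587, and -0.13 ± 0.07 (SE), adjusted p = 0.366 without replicate 3. Cox6b1, a subunit of complex IV facing the intermembrane space, had 467, 403, 405, 424 and 415 and 424, 342, 214, 445 and 409.7. Its fold was -0.25 ± 0.16 (SE), with an adjusted p of 0.763, and -0.07 ± 0.07 (SE), adjusted p = 0.691 without replicate 3. In both genes replicate 3 was the lowest of the 10 libraries and the groups overlapped.

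Ndufa12, a complex I accessory subunit with a near-identical copy, was at -0.25 ± 0.11 (SE), with an adjusted p of 0.487, and at -0.17 ± 0.08 (SE), adjusted p = 0.292 without replicate 3. Cox6b2, near the CPM minimum, was at -0.38 ± 0.13 (SE), with an adjusted p of 0.262, and at -0.29 ± 0.12 (SE), adjusted p = 0.216 without it. Among genes at a mean CPM of 5 or more the highest folds were those of Atp5sl (0.03 ± 0.11), Atp5j, a stalk subunit of the synthase (0.0077 ± 0.13), and the complex III assembly factor Uqcc (-0.01 ± 0.13, all SE), and each changed sign with other settings. The 95% interval lay within 1.5-fold for 76 of 78 genes and within 1.25-fold for 11.

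**Figure D4:**
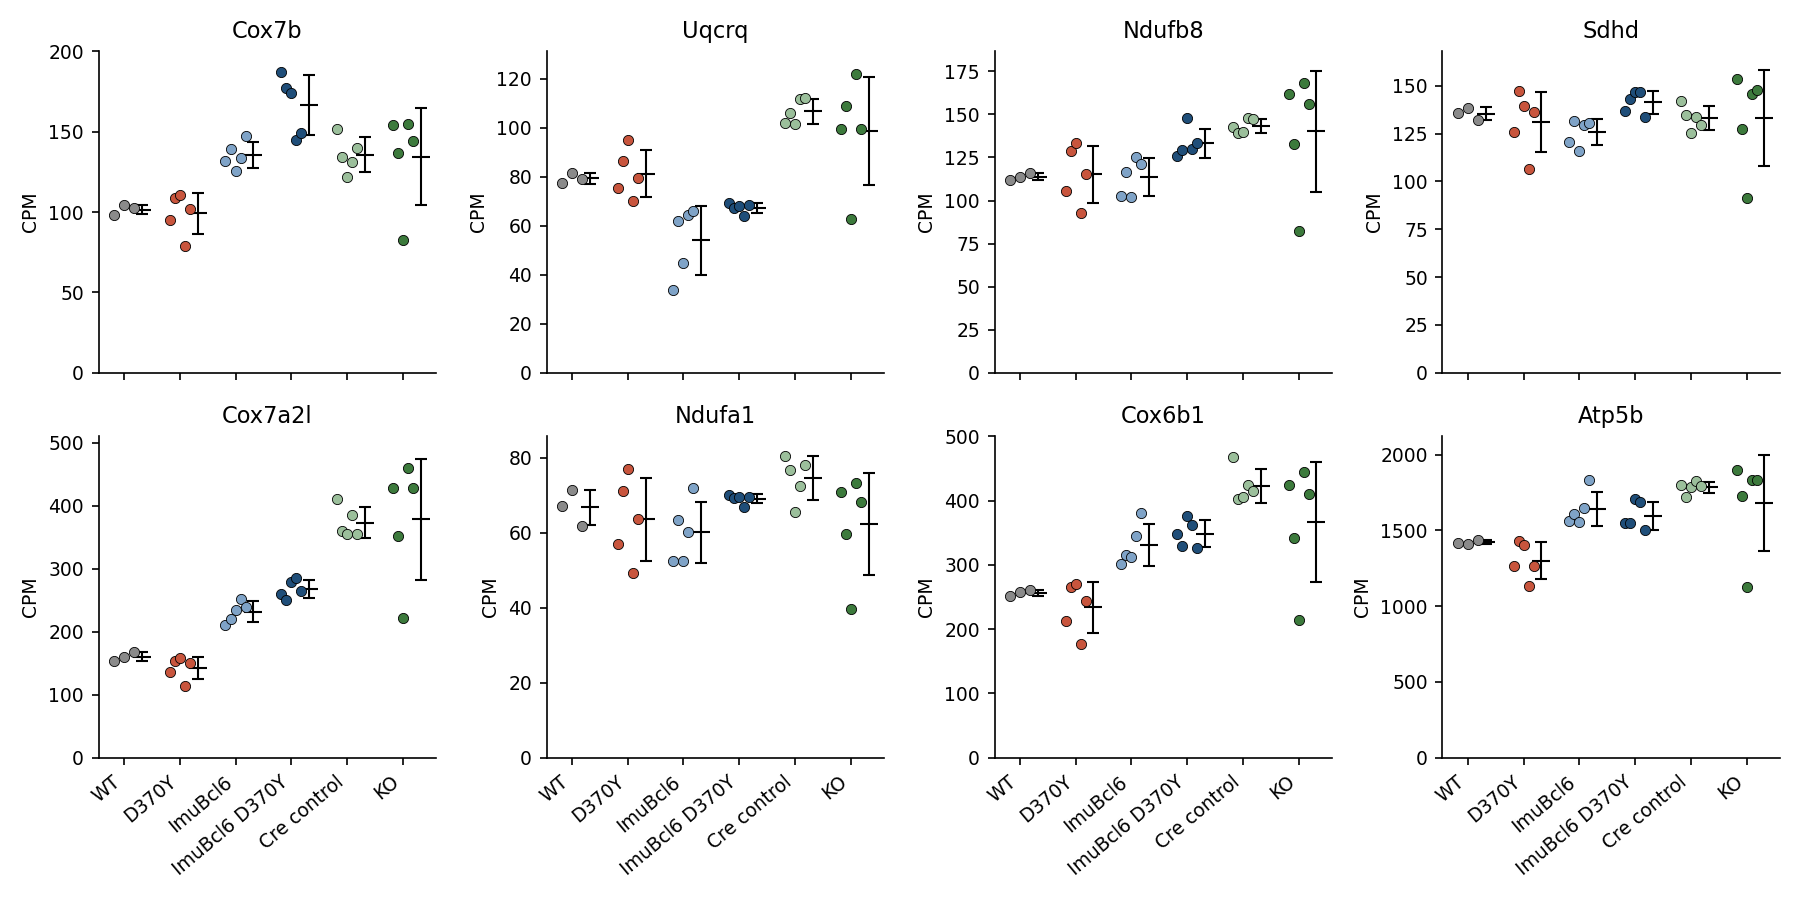
CPM of 8 genes in each library (points) by group, with the group mean and SD (bars); each vertical axis starts at 0. Cox7b is higher in 4 of the 5 ImuBcl6 D370Y libraries than in any ImuBcl6 library, Uqcrq is low in 2 ImuBcl6 libraries, and 1 KO library is the lowest of its group in each panel.

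The genes of complex II and the most abundant genes of the other complexes were followed through all 3 comparisons, and limma called none. DESeq2 called Sdhd and Ndufb8 higher in ImuBcl6 D370Y. Sdhb, which passes electrons through its iron-sulphur clusters, had 246, 253 and 255 CPM in WT, 223, 260.1, 270.2, 184 and 243 in D370Y, 219.9, 254, 238, 264 and 281 in ImuBcl6 and 259, 263, 266, 280.0 and 274 in ImuBcl6 D370Y. It had 309, 292, 289, 294 and 305 in the Cre control and 305, 244, 168, 311 and 301 in KO. In the order D370Y, ImuBcl6 D370Y and KO, its folds were -0.10 ± 0.11, 0.10 ± 0.06 and -0.20 ± 0.15 (SE), with overlapping ranges in each.

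In the same order, the anchor Sdhc had folds of 0.0052 ± 0.09, 0.05 ± 0.06 and -0.11 ± 0.13 (SE), the anchor Sdhd -0.06 ± 0.09, 0.17 ± 0.05 and -0.02 ± 0.13, and Sdha -0.12 ± 0.06, 0.03 ± 0.05 and -0.02 ± 0.11. Uqcrh, the hinge subunit, was at -0.09 ± 0.11, 0.21 ± 0.08 and -0.19 ± 0.18 (SE), and Cox4i1 at -0.04 ± 0.10, 0.20 ± 0.08 and -0.11 ± 0.16 (SE). Ndufb11, an X-linked accessory subunit of complex I, was at -0.03 ± 0.10, 0.20 ± 0.07 and -0.06 ± 0.14 (SE). The muscle isoform Cox7a1 was at 0.03 ± 0.15, 0.03 ± 0.12 and -0.05 ± 0.15 (SE), on few reads. For all of these the SE in the KO comparison includes KO replicate 3.

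Other gene groups in the KO comparison were read against the 30.2% of all genes above 0. Of the mitochondrial ribosome genes 3 of 75 were above 0 (median -0.08), of the citric acid cycle genes 3 of 19, of import genes 5 of 23 and of regulators 4 of 16, with 0 called in each, and of the cytosolic ribosome genes 23 of 76. Without KO replicate 3 the mitochondrial ribosome was above 0 in 59 of 75, citric acid cycle genes in 10 of 19, import genes in 18 of 23, regulators in 7 of 16 and the cytosolic ribosome in 73 of 76 (median 0.11), against 50.4% of all genes. In that fit 1 citric acid cycle gene, Idh2, was called lower and 0 in the other 4 groups. In D370Y against WT the matching counts were 15 of 73, 2 of 19, 5 of 22, 5 of 16 and, for the cytosolic ribosome, 31 of 67 (median -0.01), with 0 called. There Yy1 was at -0.24 ± 0.08 (SE), adjusted p = 0.116 and Gabpa at -0.16 ± 0.07 (SE), adjusted p = 0.266, and in KO they were at -0.18 ± 0.11 (SE), adjusted p = 0.711 and -0.05 ± 0.09 (SE), adjusted p = 0.915. Markers of other cells also moved in these comparisons: 6 of 10 myeloid, 4 of 8 naive B and 2 of 7 plasma cell genes were called higher in D370Y (myeloid sums 122 to 143, against 71.6 to 87.0 in WT), and 3 of 8 naive B genes in KO. Called lower were the germinal center gene Gcet2 in both comparisons and the plasma cell gene Fam46c in KO. Without KO replicate 3, 6 of 8 naive B genes, both endothelial genes tested (Cdh5 and Pecam1) and Cd2 were called higher, and Gcet2 and Fam46c lower. Their part in the OXPHOS values was not tested.

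The KO and D370Y effects were set against each other in a fit of both pairs. Limma called 0 of 78 (0.145% of all genes), and 0 had an unadjusted p below 0.05 (6.14%). edgeR called 0 (0.0453%) and DESeq2 0 (0.399%). The median difference was -0.04 with 23 of 78 above 0, and 0.11 without KO replicate 3. The 95% interval was within 1.5-fold for 69 genes and within 1.25-fold for 0, so the test leaves room for differences of that order. The pairs also differed in depth, with 19.0 to 22.2 M reads on listed genes in D370Y and WT and 27.1 to 34.3 M in KO and Cre control.

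Spread within groups was shared by genes of the set. In D370Y, replicate 4 deviated by -0.24 in the median over the OXPHOS genes, -0.18 over the cytosolic and -0.19 over the mitochondrial ribosome, and replicate 3 by 0.18, 0.18 and 0.16. The genes of the set are therefore not independent readings of an allele: a library high in 1 tended to be high in most. Transcript length, the annotated length used above, is a further shared property, with a median of 671 bases in the set and 2145 over expressed genes. Across the genes tested, Spearman's rho between length and fold was 0.06 for D370Y, -0.27 for ImuBcl6 D370Y and 0.32 for KO, given as a description since genes share their libraries.

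**Figure D5:**
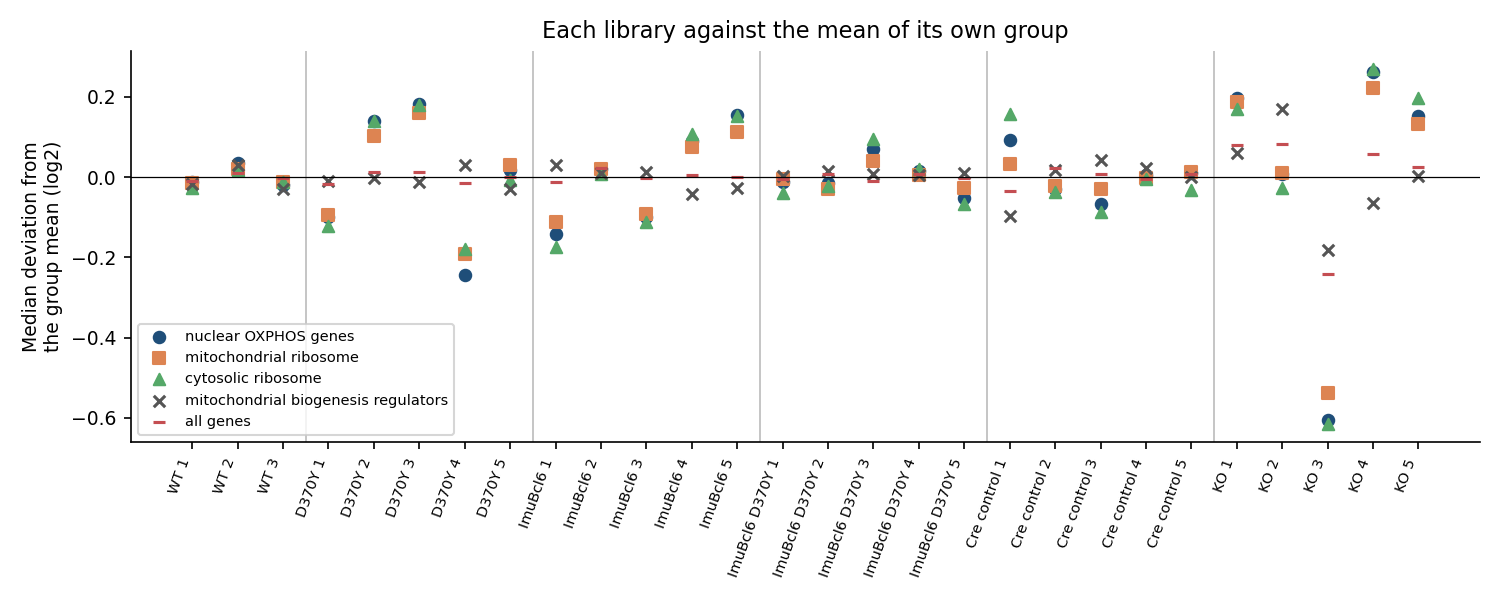
Median deviation (log2) of each library from the mean of its own group, over the OXPHOS genes, the mitochondrial ribosome, the cytosolic ribosome, mitochondrial biogenesis regulators and all genes. KO replicate 3 lies at -0.61 for the OXPHOS genes and -0.24 for all genes, and in most libraries the OXPHOS and both ribosome values lie close together.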

How the data were processed

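Per the labels' protocols, Trizol and an RNeasy kit were used for RNA, and a stranded TruSeq kit is named for KO and Cre control. Per the submitters' processing notes reads were aligned with STAR to mm10; how reads were counted, with which annotation and strand setting, is not stated in the labels. The authors deposited CPM per gene symbol, with a denominator larger than the reads on listed genes. Of these values 100% were whole multiples of 1 read within 0.01 of a read.

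Each allele was fitted against its own control with limma 3.58.1 (R 4.3.3) on log2 values, log2(CPM + 1), computed from the deposited CPM without further scaling, for genes at a CPM of at least 1 in as many libraries as the smaller group, with trend and robust moderation. Tests were two-sided, adjusted by Benjamini-Hochberg over all genes and called below 0.05; differences of effects were contrasts of 4 groups. edgeR 4.0.16 (quasi-likelihood) and DESeq2 1.42.0 were run on the recovered reads. The pseudocount understates changes of low genes. The fits were also run on simulated reads, with each gene drawn independently and no shift shared by the genes of a library. Such shifts are present here, so that run does not show how the fits behave on these data. The genes and lists were chosen with earlier results of these data known.

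Named were called genes, the 3 largest rises and 3 largest falls per comparison at a mean CPM of at least 5, the highest gene per kb of each complex, complex II, listed isoforms and factors, and genes whose ranges did not overlap, the last chosen after their values were seen. Copies were sought with BLAST 2.17.0 in GENCODE M21, from which coordinates come. Alternatives were other pseudocounts, filters, scalings, tools, weights, a joint fit, an Xist covariate (above 100 CPM or not), a replicate block and each library left out.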

Additional observations from a re-analysis of the deposited data

Results flagged for a closer look

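Of 60 groups of values tested (the summed CPM of the set and of each complex and the named genes, in groups of 4 or 5 libraries), 2 held a library far from the others, where chance gives about 1 in 20. The summed CPM of complex V was 3478 in KO replicate 3, against 5326 to 5997 in the other 4 KO libraries. Atp5sl, the complex I assembly factor, was at 50.8 CPM in KO replicate 3, against 68.9 to 76.2 in the other 4.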

How the results depend on the processing

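In ImuBcl6 D370Y against ImuBcl6 the number of OXPHOS genes called, 1 as reported, was 0 with no filter on low values, without trend and robust moderation or with all 28 libraries in 1 fit, 2 with a filter at a CPM of 5 (Cox7b included), library weights (Atp5j, Cox7b) or edgeR, 3 with TMM scaling (Atp5j2, Cox7a2l, Cox7b), 5 with CPM over listed reads and 14 with DESeq2. With a replicate block it was 3 (Cox7a2l, Cox7b, Ndufa13), and 0 in the other comparisons. The replicate numbers do not pair the libraries (correlations of same-numbered deviations -0.28 to 0.51). Of all genes, 8.18% were called as reported, 7.35% with edgeR and 12.8% with DESeq2. The share of all genes in the other settings is not given here, so those counts are no result about the set. Leaving out 1 library gave 0 to 8, the 8 of 78 without ImuBcl6 replicate 5, where 847 of all 10845 genes were called, and 0 in every other comparison. Library weights called 1 gene in KO (Cox7a2l) and DESeq2 1 in the difference between backgrounds.

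The median fold of D370Y was 0.0075 with the block, which compared replicates 1 to 3 only. With 1 library left out it was -0.12 to -0.01. The median of KO was 0.08 with library weights and -0.16 to 0.05 with 1 left out. With 1 left out, that of the difference between KO and D370Y was -0.10 to 0.11. In such fits it was 0.10 to 0.17 for ImuBcl6 D370Y and 0.14 to 0.25 for the difference between backgrounds. Both were lower with library weights, at 0.092 and 0.12. KO folds above 0 numbered 18, 16, 24 and 23 of 78 with listed reads, TMM, edgeR and DESeq2, against 3 as reported, and 66 with weights.

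Single genes changed sign as follows. In ImuBcl6 D370Y, Atp5sl was 0.018 with listed reads, 0.013 with TMM, 0.0099 with edgeR and 0.013 with DESeq2, and Atp5s 0.013 with weights. In KO, Uqcc was 0.049, 0.043, 0.065 and 0.065 in the same order and 0.15 with weights. With the covariate for Xist above 100 CPM or not, Atp5sl was -0.0064 and Atp5j -0.034 in KO. With 1 library left out, D370Y gave Ndufa3 -0.0013 to 0.11 and Atp5sl -0.013 to 0.085; ImuBcl6 D370Y gave Atp5b -0.062 to 0.0030, Atp5s -0.093 to 0.030 and Atp5sl -0.049 to 0.041; KO gave Atp5sl -0.014 to 0.13, Atp5j -0.055 to 0.13 and Uqcc -0.064 to 0.13. The causes were not tested.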
